A study of Mus musculus with 4 samples.

Results

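Serpins are a superfamily of proteins of which most trap serine proteases by an irreversible change of shape. Among the 19465 genes listed in the count matrices of 4 mouse liver sections, 56 had a symbol that begins with Serpin. The 31 that held at least 20 UMIs (unique molecular identifiers, each of which marks 1 captured molecule) over the 4 sections are described here. Of the others, 21 held 1 to 19 UMIs and 4 (Serpinb3a, Serpinb3b, Serpini2 and Serpinb9h) held 0. Serpinb1b, with 44 UMIs, lay just inside this limit, and Serpina5 with 19 and Serpinb7 with 16 lay just outside. Together the 56 genes took 4.42% of all UMIs in the healthy section, 2.61% and 3.33% in fibrotic sections 1 and 2, and 2.25% in the section with Hk2 deleted.

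The sections were formalin-fixed liver profiled with Visium, which captures RNA on a grid of barcoded spots that each cover several cells. Each section came from 1 mouse of 5 months, labelled male, and all 4 mice had been given tamoxifen (75 mg/kg on 5 days) followed by a wait of 2 weeks. The healthy mouse (n = 1) and the mice of the fibrotic group (n = 2) were HK2fl/fl, which carry floxed Hk2 alleles and no Cre. The Hk2-deleted fibrotic mouse (n = 1) was PDGFRBcreERT2/Hk2fl/fl, so that Hk2 (hexokinase 2, a glycolytic enzyme) can be deleted only in cells that use the Pdgfrb promoter, such as hepatic stellate cells. The healthy mouse received olive oil, and the other 3 received carbon tetrachloride (CCl4, 1 µL/g, 2 injections per week), a toxin that scars the liver. The series' design text gives 6 weeks of CCl4 and the sample protocol gives 4 or 6. The sections held 2577 to 4134 spots, 40585039 to 67479047 UMIs, and a median of 13665 to 15588 UMIs per spot.

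Levels are given as normalised CPM, a gene's UMIs over the library total in the usual unit after trimmed mean of M-values (TMM) scaling, and differences are on the log2 scale. Fibrotic section 1 went against its label: the Y-linked Eif2s3y was at 83.9, 0.515, 63.3 and 58.0 CPM in the healthy section, fibrotic sections 1 and 2 and the Hk2-deleted section, and Ddx3y at 62.9, 0.369, 51.3 and 43.1. Differences without that section are therefore given for some of the results that rest on it, but not for all. Levels in each section are given for every serpin called between whole sections. Hk2 stood at 2.22, 4.34, 4.02 and 3.21 CPM in the same order, and the Hk2-deleted section differed from the fibrotic ones by -0.38 ± 0.33 (SE; adjusted p = 1) in edgeR's quasi-likelihood test. In sums over spots, fewer cells of a type and less RNA per cell cannot be told apart. With 1 mouse per section, p-values measure only the spread between these sections.

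The liver makes most of the serpins of blood plasma. Hepatocytes secrete antithrombin, heparin cofactor II, alpha-2-antiplasmin, C1 inhibitor and the alpha-1-antitrypsin and antichymotrypsin families, which restrain clotting, fibrinolysis, complement and the proteases of neutrophils. Others are known from stromal and inflammatory cells, such as protease nexin 1 (Serpine2) and Serpinh1 (HSP47), a chaperone of procollagen in the endoplasmic reticulum that inhibits no protease. Clade B serpins mostly stay inside the cell. Mice carry several near-identical copies of genes that are single in humans, among them Serpina1a to Serpina1e. The probe sequences were not used here, so the split of molecules among such copies is uncertain.

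Of the 31 serpins, 15 lie within 797.66 kb on chr12:103616675-104414334 (RefSeq, GRCm38.p6, the build also called mm10), and these include the Serpina1 and Serpina3 copies. RefSeq's promoter table (250 bases before to 50 after each gene's start) held 25 of the 31; Serpina6, Serpina10, Serping1, Serpina3k and Serpina3m were among those without an entry. The windows of the 5 Serpina1 copies are shown because these near-identical genes differed by very unequal amounts between the sections, as described further on. Capitals mark GTTAAT, a 6-letter part of the hepatocyte nuclear factor 1 recognition sequence.
Serpina1a, chr12:103863595-103863725, minus strand: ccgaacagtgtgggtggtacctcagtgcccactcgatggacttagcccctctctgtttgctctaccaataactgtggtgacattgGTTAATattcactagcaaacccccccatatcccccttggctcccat
Serpina1b, chr12:103738170-103738300, minus strand: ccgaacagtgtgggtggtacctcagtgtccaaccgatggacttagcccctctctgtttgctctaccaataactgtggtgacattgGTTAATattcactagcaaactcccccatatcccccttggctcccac
Serpina1c, chr12:103904932-103905062, minus strand: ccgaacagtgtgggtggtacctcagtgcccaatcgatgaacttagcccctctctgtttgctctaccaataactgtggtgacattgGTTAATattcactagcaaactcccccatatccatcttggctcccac
Serpina1d, chr12:103773604-103773734, minus strand: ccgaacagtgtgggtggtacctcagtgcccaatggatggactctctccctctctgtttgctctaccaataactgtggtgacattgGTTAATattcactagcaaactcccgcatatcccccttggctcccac
Serpina1e, chr12:103956930-103957060, minus strand: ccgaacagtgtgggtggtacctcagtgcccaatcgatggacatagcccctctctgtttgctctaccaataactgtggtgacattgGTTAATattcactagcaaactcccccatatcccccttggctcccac
Each window is 131 bases long, and the 10 pairs of windows differed at 3 to 9 positions, an identity of 93.1% to 97.7%. Serpina1e differed from the other 4 at the same position, A42T, counted from the 5′ end of the window with the base of Serpina1e first. The capitals stand at position 86 in each. GTTAAT on either strand occurred in 7.10% of 32851 promoters of this length and in 7 of the 25 serpins with an entry: the 5 Serpina1 copies, Serpina7 and Serpinb8.

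A further set of windows belongs to serpins that were higher in the spots where the Serpina1 copies were lower. In Serpina7 the capitals mark GTTAAT, and in Serpinh1 and Serpine2 they mark a copy of GGGCGG, the core of a GC box.
Serpina7, chrX:139085248-139085378, minus strand: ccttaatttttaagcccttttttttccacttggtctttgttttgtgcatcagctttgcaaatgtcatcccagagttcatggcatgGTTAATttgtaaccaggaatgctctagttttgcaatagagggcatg
Serpinh1, chr7:99353211-99353336, minus strand: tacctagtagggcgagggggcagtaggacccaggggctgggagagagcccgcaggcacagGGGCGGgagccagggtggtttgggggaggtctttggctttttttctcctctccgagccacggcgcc
Serpine2, chr1:79858781-79858911, minus strand: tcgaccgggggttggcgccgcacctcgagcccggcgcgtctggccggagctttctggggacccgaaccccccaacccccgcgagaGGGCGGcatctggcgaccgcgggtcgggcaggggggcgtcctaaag
The bases G and C made up 38.9% of the Serpina7 window, 66.7% of that of Serpinh1 and 75.6% of that of Serpine2, against 51.1% for Serpina1e. GGGCGG on either strand occurred in 35.7% of all promoters. It occurred in 6 of the 25 serpins with an entry. These were 3 of the 4 that were higher in collagen-rich spots (Serpine2, Serpinb6a and Serpinh1) and 3 of the 8 not called there (Serpinb6b, Serpinb9 and Serpina12). None of the 11 that were lower there had it, and these 11 include the 5 near-identical Serpina1 copies. A match describes the letters only.

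With CCl4, the collagen chaperone Serpinh1 and the thrombin inhibitor Serpine2 were higher. All 5 alpha-1-antitrypsin copies were highest in the healthy section, and 1 of them, Serpina1e, was called lower. In edgeR's quasi-likelihood test of the fibrotic sections against the healthy one (Benjamini-Hochberg adjusted p under 0.05 over 14125 genes), Serpinh1, Serpine2, Serpinb6a and Serpini1 rose and Serpina1e, Serpina12 and Serpina11 fell. That is 12.9% of the 31 serpins higher and 9.68% lower, beside 9.64% and 4.01% of all genes tested, so the share that was higher was near that of all genes. The median difference was -0.26 over the serpins and 0.00 over all genes. By location, the risers included 3 of the 5 serpins that were higher in collagen-rich spots, and the genes that fell included 2 of the 16 that were lower there.

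Serpinh1 (chr7:99345375-99353239), the procollagen chaperone, was at 18.8 in the healthy section, 56.8 and 44.3 in fibrotic sections 1 and 2 and 48.6 in the Hk2-deleted section. All 3 CCl4-treated sections lay above the healthy one, and the fibrotic group differed from it by 1.43 ± 0.23 (SE; adjusted p = 0.00022). Serpine2 (chr1:79794317-79858665), an inhibitor of thrombin and plasminogen activators that stays near the cell surface, was at 3.38 in the healthy section, 14.8 and 8.57 in fibrotic sections 1 and 2 and 9.48 in the Hk2-deleted section. Its difference was 1.80 ± 0.30 SE, adjusted p = 0.00036; it was 1.34 without fibrotic section 1 and 2.13 without fibrotic section 2. Serpinb6a, an intracellular inhibitor of cathepsin G, was at 15.9 in the healthy section, 32.7 and 26.2 in fibrotic sections 1 and 2 and 22.2 in the Hk2-deleted section, a difference of 0.89 ± 0.20 (SE; adjusted p = 0.0045). With all 3 CCl4-treated sections as 1 group its adjusted p was 0.061.

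Serpini1 (neuroserpin, an inhibitor of tissue plasminogen activator best known from neurons) was at 0.733 in the healthy section, 2.44 and 2.71 in fibrotic sections 1 and 2 and 2.31 in the Hk2-deleted section. Those levels rest on 33, 185, 108 and 164 UMIs, and the groups did not overlap. The difference was 1.81 ± 0.45 (SE; adjusted p = 0.0099). Serpinh1, Serpine2 and Serpini1 were called higher in each of the 7 other settings of this comparison that gave a test. Beside these rises, the summed level of 10 stellate cell and fibroblast markers was 369 in the healthy section, 1993 and 1271 in fibrotic sections 1 and 2 and 1402 in the Hk2-deleted section, and 8 of the 10 were called higher. Their part in the rises was not tested.

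Among the Serpina1 copies, the mouse counterparts of the alpha-1-antitrypsin gene, Serpina1e differed most. Serpina1e (chr12:103946931-103956897) was at 15226 in the healthy section, 1836 and 4663 in fibrotic sections 1 and 2 and 1543 in the Hk2-deleted section. The healthy level was above all 3 CCl4-treated sections, and the difference was -2.23 ± 0.69 (SE; adjusted p = 0.036). Without fibrotic section 1 it was -1.71 and without fibrotic section 2 it was -3.05. The call did not hold in DESeq2 (adjusted p = 0.23), with collagen-rich spots left out (0.063) or with fibrotic section 1 replaced by the Hk2-deleted section (0.063).

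The other 4 copies differed by -0.30 (Serpina1a), -0.38 (Serpina1b), -0.53 (Serpina1c) and -0.66 (Serpina1d), and none passed the test. Serpina1c, for instance, was at 5589 in the healthy section, 3079 and 4671 in fibrotic sections 1 and 2 and 2576 in the Hk2-deleted section. Serpina1e thus made up 45.6% of the UMIs of the 5 copies in the healthy section, and 13.7%, 23.3% and 16.2% in fibrotic sections 1 and 2 and the Hk2-deleted section. The 5 copies together took 2.78% of all UMIs in the healthy section and 1.5%, 1.96% and 1.04% in the others. The difference between the copies was not itself tested. The 6 hepatocyte markers in the matrices summed to 223962 CPM in the healthy section, 139964 and 140986 in fibrotic sections 1 and 2 and 92078 in the Hk2-deleted section. Alb alone held 162270 CPM of the sum in the healthy section. With CCl4 the median difference of the 6 was -0.67 (-1.24 to 0.31), and 0 were called in either direction. The part of these markers in the level of Serpina1e was not tested.

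Serpina12 (vaspin, an adipokine-like serpin; chr12:104028769-104044443) was at 40.2 in the healthy section, 11.5 and 19.2 in fibrotic sections 1 and 2 and 5.00 in the Hk2-deleted section. It was highest in the healthy section, and its difference with CCl4 was -1.40 ± 0.22 (SE; adjusted p = 0.00024). With the Hk2-deleted section in place of fibrotic section 1 its adjusted p was 0.099, and with all 3 CCl4-treated sections as 1 group 0.067. Serpina11 was at 68.5 in the healthy section, 33.9 and 49.6 in fibrotic sections 1 and 2 and 57.1 in the Hk2-deleted section, a difference of -0.72 ± 0.23 (SE; adjusted p = 0.039) that was -0.47 without fibrotic section 1 and -1.01 without fibrotic section 2. It was called in 2 of the 7 other settings with a test.

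**Figure D1:**
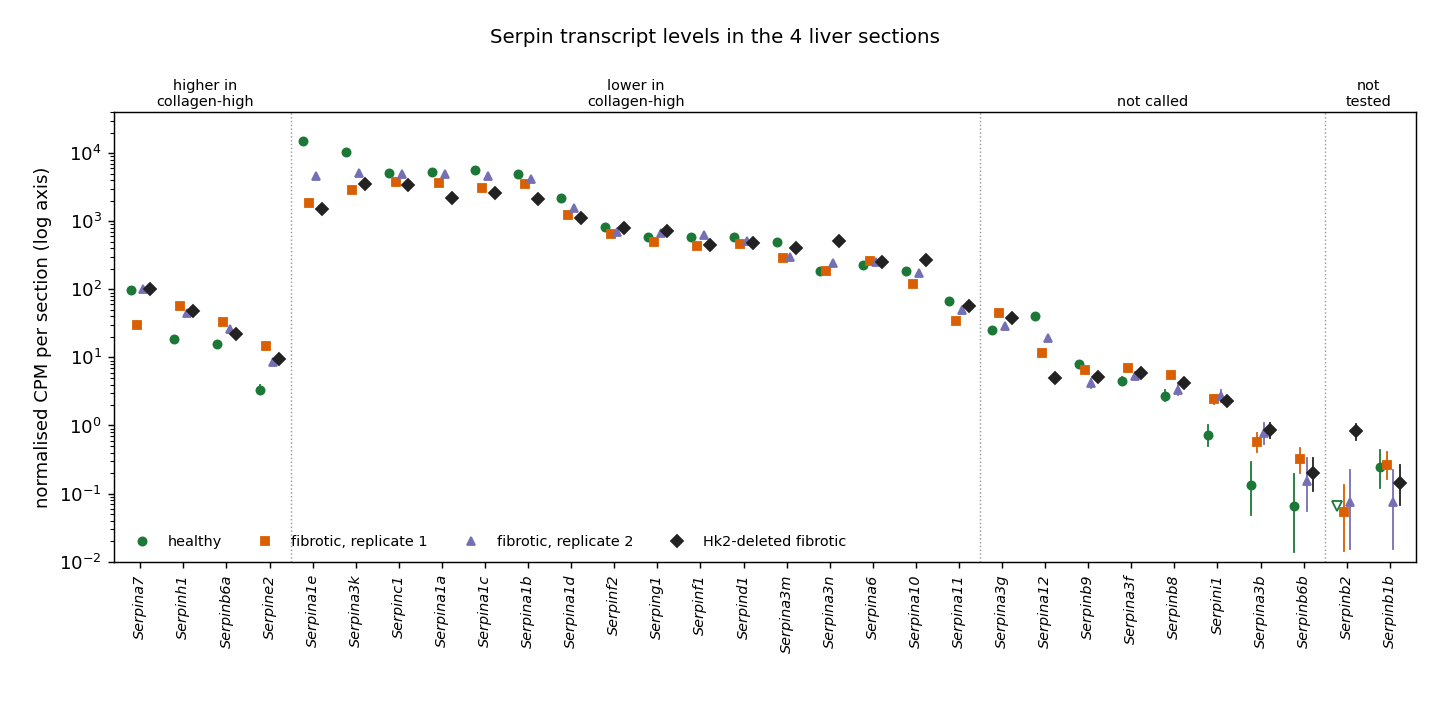
Levels of serpins in normalised CPM (log axis) in each of the 4 sections, 1 point per section with its exact Poisson interval; the open triangle is the bound for 0 UMIs. Serpinh1, Serpine2 and Serpini1 lie lowest in the healthy section, and Serpina1e and Serpina12 lie highest there.

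The clotting serpins of plasma did not pass the test. Serpinc1 (antithrombin) was at 5151 in the healthy section, 3823 and 5005 in fibrotic sections 1 and 2 and 3391 in the Hk2-deleted section, a difference of -0.22 ± 0.61 (SE; adjusted p = 0.85). Serpind1 (heparin cofactor II) differed by -0.26, Serpinf2 (alpha-2-antiplasmin) by -0.32 and Serpina10 (the protein Z-dependent inhibitor of factor Xa) by -0.34. Of the 7 serpins of coagulation and fibrinolysis, 1 was called higher (Serpine2) and 0 lower, beside 9.64% and 4.01% of all genes tested. Serping1 (C1 inhibitor) differed by 0.01 and Serpinf1 (pigment epithelium-derived factor) by -0.16.

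Of the 12 plasma inhibitors of the Serpina1, Serpina3 and Serpina11 kinds, 0 were called higher and 2 lower. Over all genes tested the shares were 9.64% and 4.01%. Serpina3k was at 10511 in the healthy section, 2879 and 5161 in fibrotic sections 1 and 2 and 3511 in the Hk2-deleted section; its difference of -1.39 ± 0.66 (SE; adjusted p = 0.18) was called lower in DESeq2 (adjusted p = 0.00042). Serpina3m differed by -0.76 (adjusted p = 0.11; 0.018 in DESeq2). The carriers did not pass: Serpina6 (corticosteroid-binding globulin) differed by 0.15, and Serpina7 (thyroxine-binding globulin) by -0.60. Serpina7 was lowest in fibrotic section 1, at 98.0 in the healthy section, 29.7 and 99.7 in fibrotic sections 1 and 2 and 103 in the Hk2-deleted section. Without that section its difference was 0.03.

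Of 31 serpins, the healthy section lay above all 3 CCl4-treated sections for 13, below all 3 for 11 and among them for 7. The matching shares over all genes were not taken, so these counts only describe the serpins and set them apart from no background. The remaining serpins were scarce: Serpina3b (0.13 to 0.86 CPM), Serpinb1b, Serpinb2 and Serpinb6b stayed under 1 CPM in each section, and none passed. Serpinb8, Serpinb9 (an inhibitor of granzyme B) and Serpina3f lay between 2.75 and 8.06 CPM and differed by 0.70, -0.59 and 0.46, none of which passed. Serpina3g was at 25.1 in the healthy section, 44.8 and 28.6 in fibrotic sections 1 and 2 and 37.9 in the Hk2-deleted section, a difference of 0.55 ± 0.23 (SE; adjusted p = 0.12). With scaling by total UMIs, an alternative chosen after the data were seen, the median of all genes moved by 0.34. Under it 5 serpins were called higher (Serpina3g among them) and 3 lower (Serpina3k in place of Serpina11). Of all genes tested, 1877 were then called higher and 206 lower. The differences of Serpinf2, Serpina1a, Serpind1, Serpinc1 and Serpinf1 changed from negative to positive under that scaling (0.02 to 0.16), and none of them passed either way.

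Deletion of Hk2 in Pdgfrb-expressing cells was compared in the same fit, against the fibrotic sections that also served the CCl4 comparison. Of 31 serpins, 0 were called higher and 1 lower, Serpina12, beside 0.142% and 0.085% of all genes tested. The median difference was -0.07 over the serpins and -0.01 over all genes. Serpina12 fell by 1.61 ± 0.26 (SE; adjusted p = 0.0056) on the log2 scale, from the levels given above to 5.00 in the 1 Hk2-deleted section. The difference was -1.94 without fibrotic section 1 and -1.20 without fibrotic section 2. With collagen-rich spots left out the adjusted p was 0.11.

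Serpina3n, an acute-phase inhibitor of granzyme B and other proteases, was at 187 in the healthy section, 187 and 245 in fibrotic sections 1 and 2 and 512 in the Hk2-deleted section. The Hk2-deleted section was the highest of the 4, and the difference of 1.25 ± 0.29 (SE; adjusted p = 0.12) did not pass in edgeR but did in DESeq2 (adjusted p = 0.0023). The acute-phase genes Lcn2 and Saa3 rose with deletion. Lcn2 was at 14.5 in the healthy section, 106 and 255 in fibrotic sections 1 and 2 and 776 in the Hk2-deleted section, a difference of 2.10 ± 0.37 (SE; adjusted p = 0.012). Saa3 was at 7.84 in the healthy section, 20.1 and 3.64 in fibrotic sections 1 and 2 and 136 in the Hk2-deleted section, a difference of 3.50 ± 0.47 (SE; adjusted p = 0.0013). Their part in the level of Serpina3n was not tested. Beside the 0 serpins called higher, 4 had an unadjusted p under 0.05 with a positive difference, and DESeq2 called 1. With scaling by total UMIs, 4 were called higher and 3 lower, beside 63 and 50 over all genes tested.

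Serpinb2 (plasminogen activator inhibitor 2) held 0 UMIs in the healthy section, 4 and 3 in fibrotic sections 1 and 2 and 58 in the Hk2-deleted section. The last corresponds to 0.817 CPM (exact Poisson 95% interval 0.62 to 1.06, counting error only), and a count of 0 in the healthy section allows up to 0.0667 CPM. The adjusted p for deletion was 0.072. Of the 58 UMIs, 32 lay in the collagen-high spots defined in the next comparison, at 4.19 CPM against 0.455 in the other spots. Serpinh1 and Serpine2, which rose with CCl4, differed with deletion by -0.06 ± 0.21 (SE; adjusted p = 1) and -0.31 ± 0.27 (SE; adjusted p = 1).

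To separate serpins by location, the 10% of spots of each section with the largest share of UMIs from Col1a1, Col1a2 and Col3a1 were called collagen-high and compared with the section's other spots. The test was edgeR's quasi-likelihood test over the 3 CCl4-treated sections with section as a block. Of 29 serpins tested, 5 were higher in collagen-high spots (Serpine2, Serpinh1, Serpinb6a and Serpina7 among them) and 16 were lower, or 17.2% and 55.2%. Over all 13493 genes tested, 21.7% were higher and 22% lower, so the share of serpins that was higher was near that of all genes and the share that was lower was above it. The median was -0.45 over the serpins and 0.01 over all genes. With scaling by total UMIs, which moved the median of all genes by 0.34, 9 serpins were higher and 14 lower. Of all genes tested, 7410 were then higher and 682 lower.

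The collagen-high spots were not a sample of all zones: 71.4%, 78.3% and 69.7% of them were pericentral by a score of lobule position in fibrotic sections 1 and 2 and the Hk2-deleted section. In fibrotic section 1 and the Hk2-deleted section, 49.2% and 66.1% of them held, or lay next to a spot that held, a UMI of Msln or Upk3b, genes of the mesothelium that covers the liver, against 33.3% and 31.0% of all spots there. In fibrotic section 2 the shares were 2.33% and 2.29%. In the test, all 6 hepatocyte markers tested were lower in collagen-high spots (log2 -0.89 to -0.35; Alb -0.63), and all 7 stellate cell and fibroblast markers tested were higher (0.50 to 1.62). All 8 neutrophil markers and all 4 mesothelial markers were higher too; the latter summed to 8.58 CPM in the healthy section, 20.3 and 6.28 in fibrotic sections 1 and 2 and 22.2 in the Hk2-deleted section. Their part in the serpin differences was not tested.

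Serpinh1, whose client is collagen itself, was higher in the collagen-high spots of each section. Its level in collagen-high against other spots was 108 against 55.4 in fibrotic section 1, 83.1 against 43.4 in fibrotic section 2 and 135 against 42.3 in the Hk2-deleted section. The healthy section had the same direction (35.3 against 17.7), and the test gave 1.20 ± 0.11 (SE; adjusted p = 9.9e-07). Serpine2 was at 38.5 against 12.8 in fibrotic section 1, 21.3 against 7.78 in fibrotic section 2 and 27.5 against 8.10 in the Hk2-deleted section, a difference of 1.60 ± 0.09 (SE; adjusted p = 2.1e-08). Serpinb6a was at 48.5 against 34.0 in fibrotic section 1, 37.0 against 27.1 in fibrotic section 2 and 34.9 against 22.9 in the Hk2-deleted section, a smaller difference of 0.51 ± 0.07 (SE; adjusted p = 4.05e-05).

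**Figure D2:**
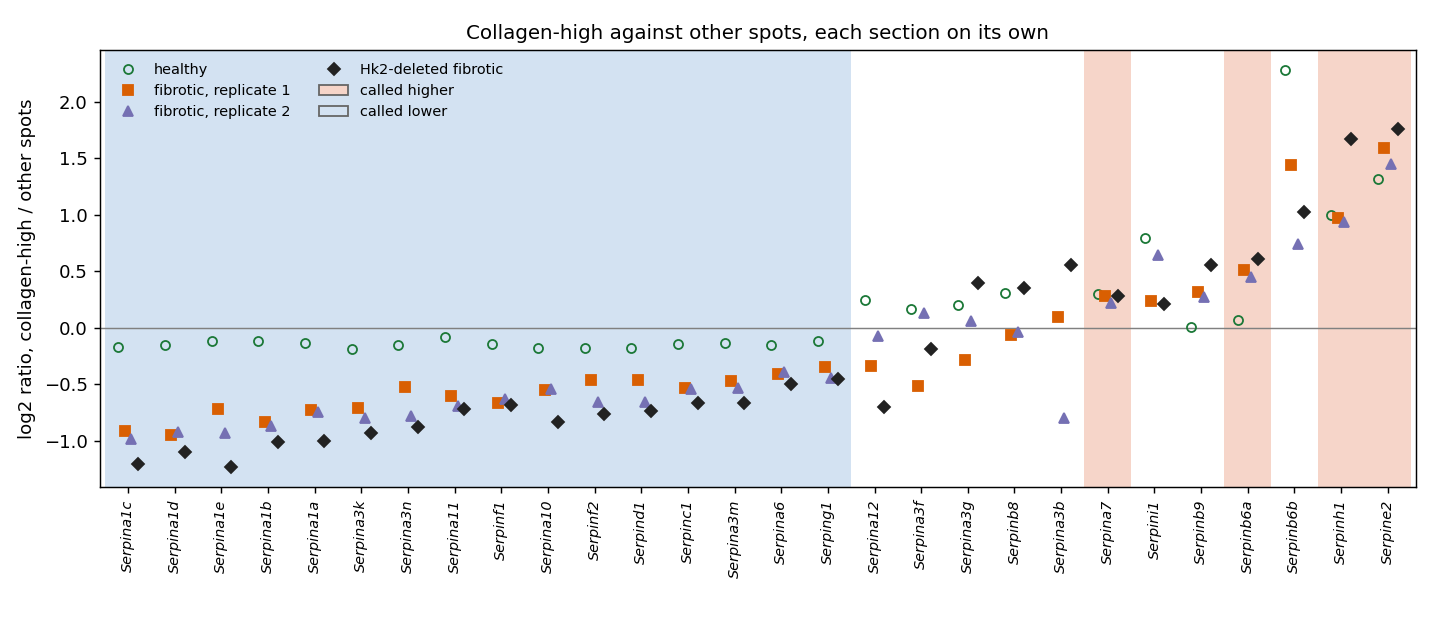
Log2 ratio of the serpins' levels in collagen-high over other spots, 1 point per section; shading marks serpins called higher or lower over the 3 CCl4-treated sections. Serpine2 and Serpinh1 lie above 0 in those sections, and the 5 Serpina1 copies lie below it.

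Most serpins that were lower in collagen-high spots are known as plasma proteins from hepatocytes. The 6 with the largest differences were the 5 Serpina1 copies and Serpina3k. Serpina1c was at 1917 against 3599.9 in fibrotic section 1, 2679.6 against 5309 in fibrotic section 2 and 1316 against 3023 in the Hk2-deleted section, a difference of -1.04 ± 0.07 (SE; adjusted p = 5.4e-08). Serpina1d was at 764 against 1471 in fibrotic section 1, 934 against 1768 in fibrotic section 2 and 613 against 1311 in the Hk2-deleted section, a difference of -1.0 ± 0.06 (SE; adjusted p = 3.2e-08). Both were lower in each of the CCl4-treated sections.

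Serpina1e, the copy whose level differed most between sections, was at 1291 against 2124 in fibrotic section 1, 2783 against 5287 in fibrotic section 2 and 773 against 1812 in the Hk2-deleted section. The difference within sections was -0.97 ± 0.08 (SE; adjusted p = 3.9e-07). Serpina1b was at 2303 against 4099 in fibrotic section 1, 2574 against 4705 in fibrotic section 2 and 1222 against 2459.9 in the Hk2-deleted section, a difference of -0.92 ± 0.06 (SE; adjusted p = 8.1e-08). Serpina1a was at 2583 against 4275 in fibrotic section 1, 3314 against 5547 in fibrotic section 2 and 1265 against 2528 in the Hk2-deleted section, a difference of -0.83 ± 0.07 (SE; adjusted p = 3.5e-07). Each copy was thus lower in all 3 sections. Serpina3k was at 2035 against 3329.6 in fibrotic section 1, 3349 against 5819 in fibrotic section 2 and 2133 against 4074 in the Hk2-deleted section, a difference of -0.82 ± 0.06 (SE; adjusted p = 2.1e-07). Serpina1a and Serpina3k lay within the range of the hepatocyte markers given above, and the other 4 lay below it; this was not tested.

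The other 10 were Serpina3n (-0.74), Serpina11, Serpinf1, Serpina10, Serpinf2, Serpind1, Serpinc1, Serpina3m, Serpina6 and Serping1 (-0.42), in this order of size. Of the 4 clotting and fibrinolysis inhibitors known from plasma, Serpinc1, Serpind1, Serpina10 and Serpinf2, all were lower, while Serpine2 of the same role was higher. Serpinf1 and Serping1, which fibroblasts are also known to make, were lower in collagen-high spots here (-0.67 and -0.42). With scaling by total UMIs, Serping1 and Serpina6 no longer passed. Of the 21 serpins placed, 18 kept their call and direction in all 10 other settings. The 3 that did not were Serping1, Serpina6 and Serpina7.

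A further 8 serpins were left unplaced. Serpina12 differed by -0.32 ± 0.13 (SE; adjusted p = 0.056), although it is secreted, and Serpini1 by 0.32 ± 0.23 (SE; adjusted p = 0.27). Serpinb8 and Serpinb9 differed by 0.08 and 0.38, and Serpina3g, Serpina3f and Serpina3b by 0.04, -0.26 and 0.14. Serpinb6b (1.19, adjusted p = 0.096) rested on 11 UMIs in collagen-high spots. Serpinb2 and Serpinb1b were too scarce to be tested.

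Levels were also taken by distance from the collagen-high spots. In the Hk2-deleted section Serpinh1 was at 131, 53.2, 46.3 and 34.1 CPM in collagen-high spots and in spots 1, 2 and at least 3 steps away; in fibrotic section 1 it was at 104, 59.1, 51.1 and 48.0 and in fibrotic section 2 at 80.4, 49.1, 40.8 and 36.3. The largest part of the fall came at the first step. Serpine2 did likewise, at 37.1, 14.7, 11.2 and 10.7 in fibrotic section 1. Serpina1c ran the other way, at 1846, 2894, 3531 and 3851 in fibrotic section 1, 2593, 4103, 5209 and 5566 in fibrotic section 2 and 1283, 2330.3, 2898 and 3057 in the Hk2-deleted section, again with the largest change at the first step. In the healthy section it was at 4993, 5661, 5740.1 and 5535.

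**Figure D3:**
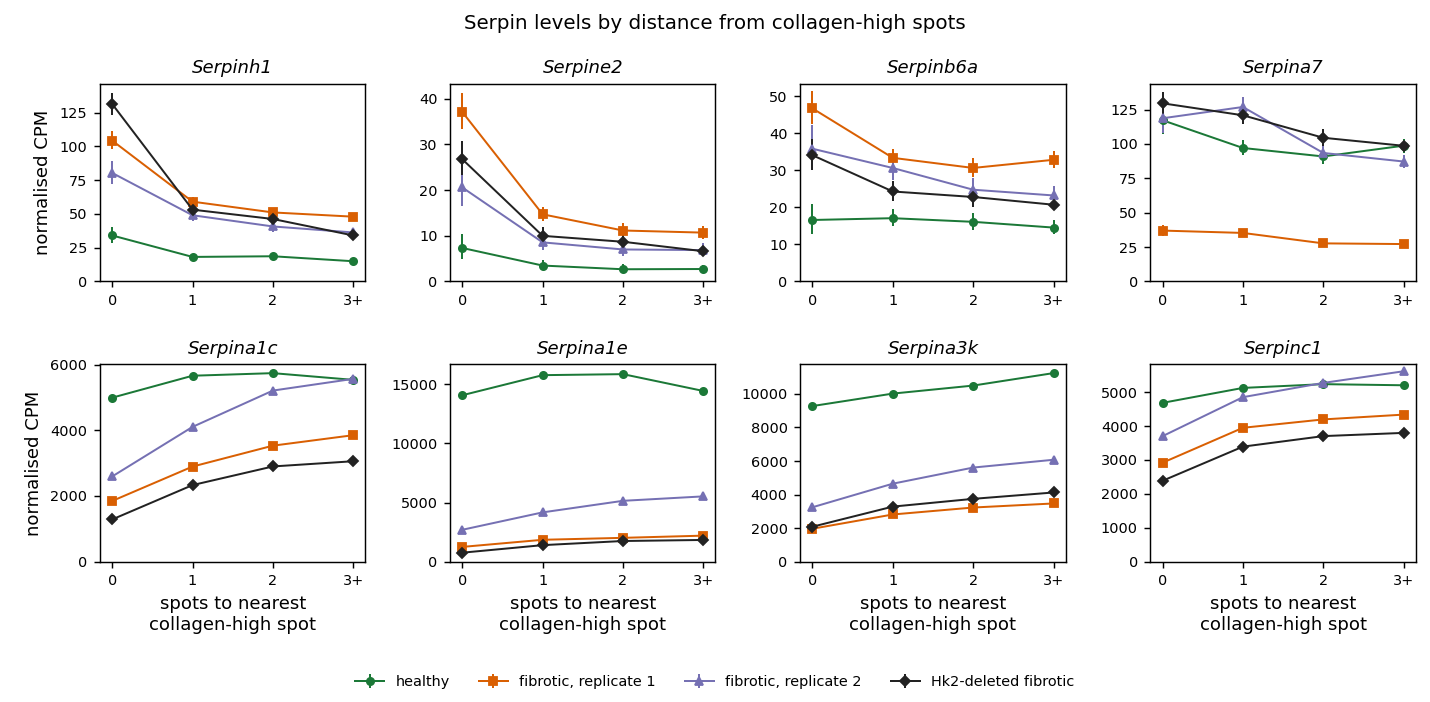
Normalised CPM of 8 serpins against distance from the nearest collagen-high spot (0, 1, 2 and at least 3 spot steps), 1 line per section, with exact Poisson intervals as bars. In the CCl4-treated sections Serpinh1 and Serpine2 fall and Serpina1c climbs with distance, each with its largest change at the first step.

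Serpina7, the carrier of thyroid hormone, was higher in collagen-high spots by 0.25 ± 0.06 (SE; adjusted p = 0.0028), with levels of 38.4 against 31.7 in fibrotic section 1, 123 against 106 in fibrotic section 2 and 133 against 109.6 in the Hk2-deleted section. Its direction turned when only pericentral spots were compared, an alternative chosen after the data were seen: the difference was then -0.20 (adjusted p = 0.038), with -0.03, -0.40 and -0.12 in fibrotic sections 1 and 2 and the Hk2-deleted section. Within that part, Serpinh1 (1.02), Serpine2 (1.37) and Serpinb6a (0.43) stayed higher, and 17 serpins were lower. For this count no matching share over all genes is given, so it only describes the serpins. The hepatocyte marker Alb was lower there too, by -0.41, -0.42 and -0.54 in fibrotic sections 1 and 2 and the Hk2-deleted section. Its part in the serpin differences was not tested. By distance, Serpina7 was as high 1 step from collagen-high spots as in them in fibrotic section 2 (119, 127, 93.5 and 87.2).

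**Figure D4:**
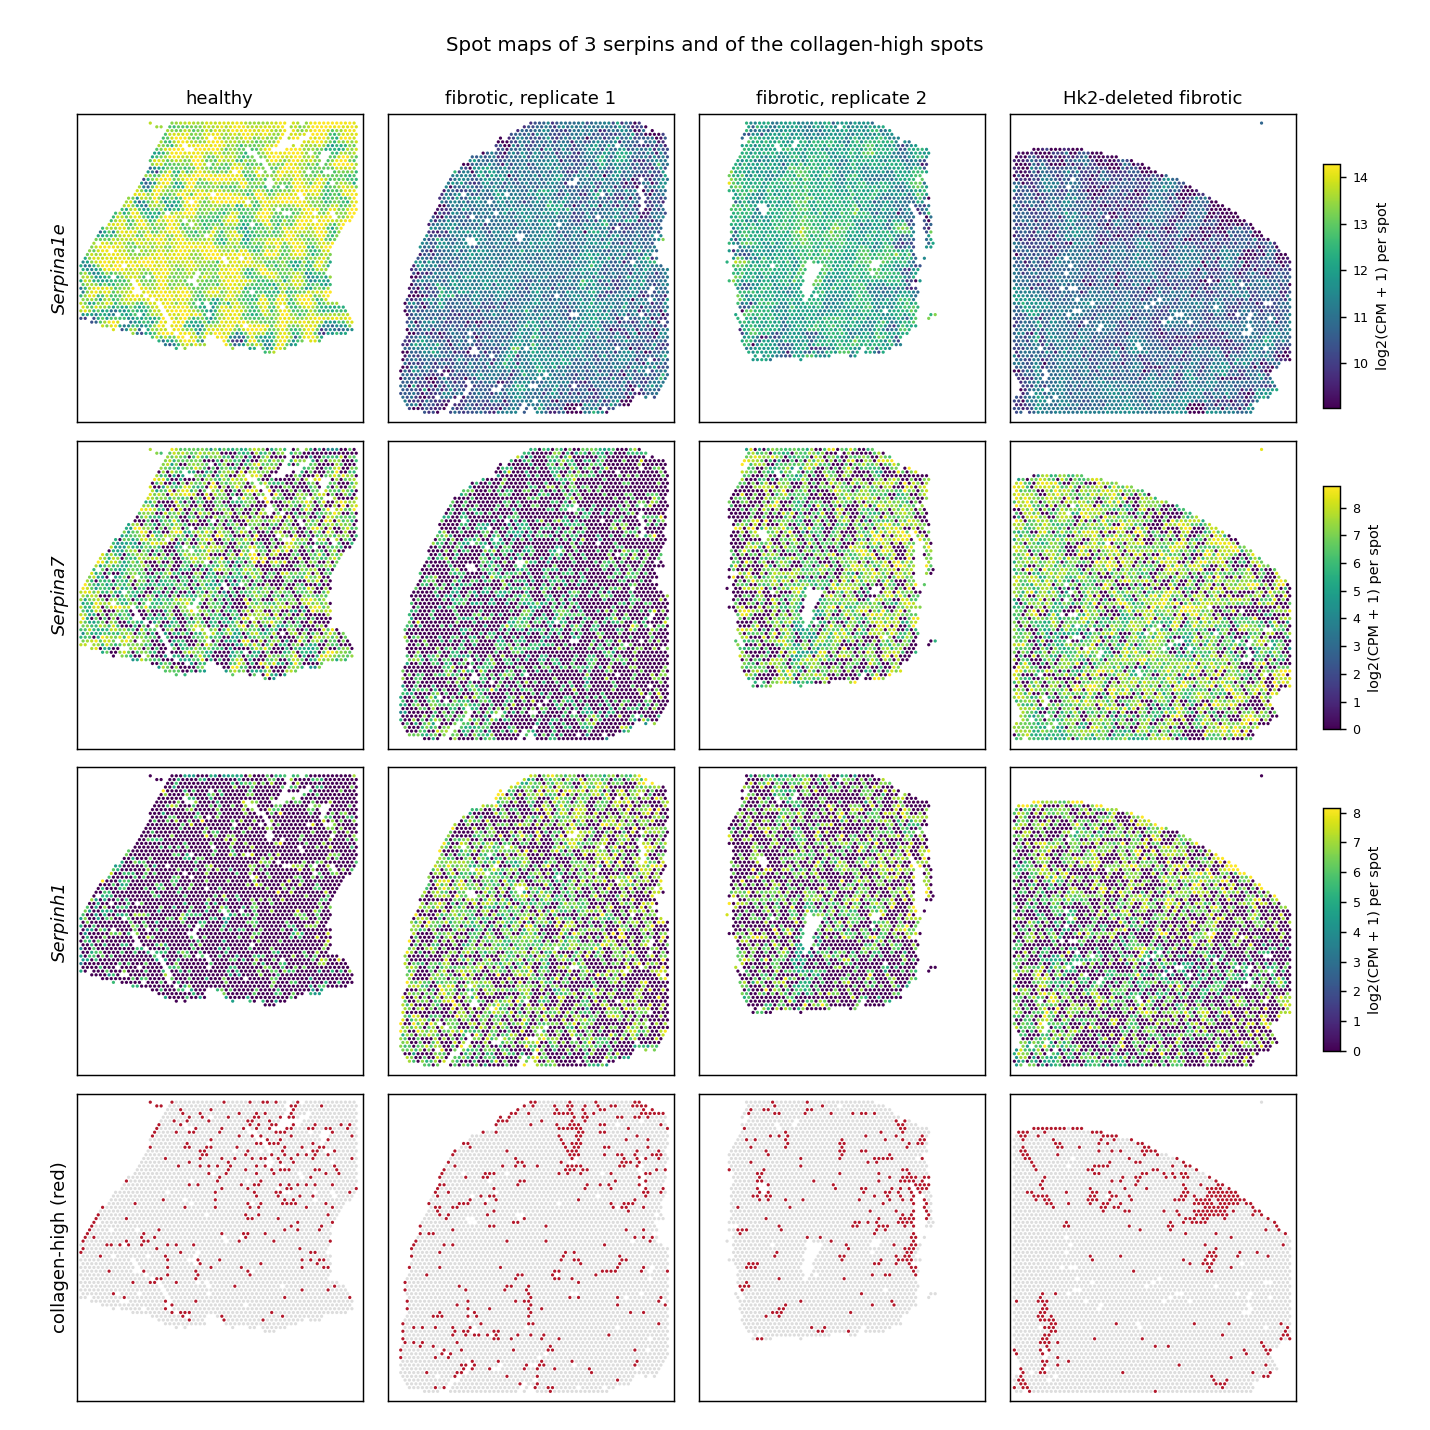
Spots of the 4 sections in array position, coloured by log2(CPM + 1) of Serpina1e, Serpina7 and Serpinh1, with collagen-high spots in red in the bottom row. Serpina1e is brightest in the healthy section, Serpinh1 is darkest there, and Serpina7 is darkest in fibrotic section 1.

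For lobule zones, the spots of each section were split into 3 equal parts, pericentral, middle and periportal, by a score from 8 pericentral and 12 periportal landmark genes, none of them a serpin. The outer parts were compared with edgeR's quasi-likelihood test over 4 sections, with section as a block. Of 29 serpins tested, 3 were higher in the pericentral part (Serpina7, Serpine2 and Serpinh1) and 15 lower, or 10.3% and 51.7%. Of 13072 genes tested, 5.26% were higher and 4.85% lower, so the share of serpins that was lower was above that of all genes. The median over the serpins was -0.40, against 0.00 over all genes. Of 27 serpins with a value in each section, 18 were lower and 3 higher in the pericentral part of all 4. For these counts of direction, no matching share over all genes was taken. With scaling by total UMIs, which moved the median of all genes by 0.21, 5 serpins were higher and 12 lower. Of all genes tested, 3722 were then higher and 358 lower.

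Serpina7 (chrX:139079249-139085236) had the largest zone difference of the serpins tested in the fit over all sections. Its level from the periportal to the pericentral part went from 49.3 to 169 in the healthy section, 15.2 to 41.96 and 48.2 to 152 in fibrotic sections 1 and 2 and 60.9 to 150.1 in the Hk2-deleted section. The middle part lay between in each section, at 91.4 in the healthy one. The difference was 1.54 ± 0.09 (SE; adjusted p = 0.00058), and it was called in all 10 other settings. The log2 gradient in fibrotic section 1, where the level was low, was 1.46, within the range of the other sections. In the healthy section alone, Serpina12 had a steeper log2 gradient than Serpina7, at -1.99 against 1.78.

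Serpina1e ran the other way, from 20204 to 7501 in the healthy section, 2383 to 1320.0 and 5922 to 2983 in fibrotic sections 1 and 2 and 2048 to 980.4 in the Hk2-deleted section (-1.09 ± 0.13 SE, adjusted p = 0.0045). Serpina12 went from 62.5 to 15.7 in the healthy section, 16.4 to 9.33 and 23.4 to 15.6 in fibrotic sections 1 and 2 and 6.62 to 4.14 in the Hk2-deleted section (-1.07 ± 0.22 SE, adjusted p = 0.028). Both were lower in the pericentral part of all 4 sections, most steeply for Serpina12 in the healthy one. Of the other Serpina1 copies, 3 more were among the 6 largest differences in this direction. Serpina1c went from 5582 to 4953 in the healthy section, 4378 to 2192 and 6232 to 2989.5 in fibrotic sections 1 and 2 and 3365 to 1727 in the Hk2-deleted section (-0.81 ± 0.17 SE, adjusted p = 0.027). Serpina1d went from 2247 to 1986 in the healthy section, 1845 to 880.3 and 2048 to 1027 in fibrotic sections 1 and 2 and 1419.5 to 805 in the Hk2-deleted section (-0.77 ± 0.15 SE, adjusted p = 0.024). Serpina1b went from 5156 to 4288 in the healthy section, 4838 to 2641 and 5316 to 2858 in fibrotic sections 1 and 2 and 2643 to 1549 in the Hk2-deleted section (-0.71 ± 0.14 SE, adjusted p = 0.021). All 3 were lower in the pericentral part of each section. Serpina3k went from 11086 to 9167 in the healthy section, 3916 to 2230.0 and 6637 to 3636 in fibrotic sections 1 and 2 and 4357 to 2627 in the Hk2-deleted section (-0.68 ± 0.14 SE, adjusted p = 0.025).

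The other serpins lower in the pericentral part were Serpina3n, Serpina1a, Serpind1, Serpina3f, Serpina11, Serpinf2, Serpinf1, Serping1 and Serpina10, by -0.65 to -0.38. Serpinc1 (-0.32 ± 0.11 SE, adjusted p = 0.10) and Serpina6 (0.17 ± 0.09 SE, adjusted p = 0.27) did not pass. Serpine2 went from 3.04 to 3.62 in the healthy section, 10.0 to 20.8 and 6.08 to 11.6 in fibrotic sections 1 and 2 and 7.09 to 13.3 in the Hk2-deleted section (0.86 ± 0.13 SE, adjusted p = 0.0079), and Serpinh1 from 18.5 to 17.6 in the healthy section, 45.0 to 68.5 and 33.0 to 55.8 in fibrotic sections 1 and 2 and 34.2 to 72.5 in the Hk2-deleted section (0.63 ± 0.15 SE, adjusted p = 0.045). Of the marker lists, 7 of 10 for stellate cells and fibroblasts, 6 of 8 for neutrophils, 4 of 7 for lymphocytes and plasma cells, 2 of 7 for macrophages and 1 of 4 for mesothelium were higher in the pericentral part. Of 6 hepatocyte markers, 2 were called lower (log2 -0.83 to -0.15 over the 6), as were 3 of 5 cholangiocyte markers. Their part in the zone differences was not tested.

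These zone calls depended on which section was left out. Of the 18, 3 remained when fibrotic section 1 was left out, and 1 when fibrotic section 2 or the Hk2-deleted section was left out, while 23 serpins were called without the healthy section. Serpina7 was called in each of these fits. 

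**Figure D5:**
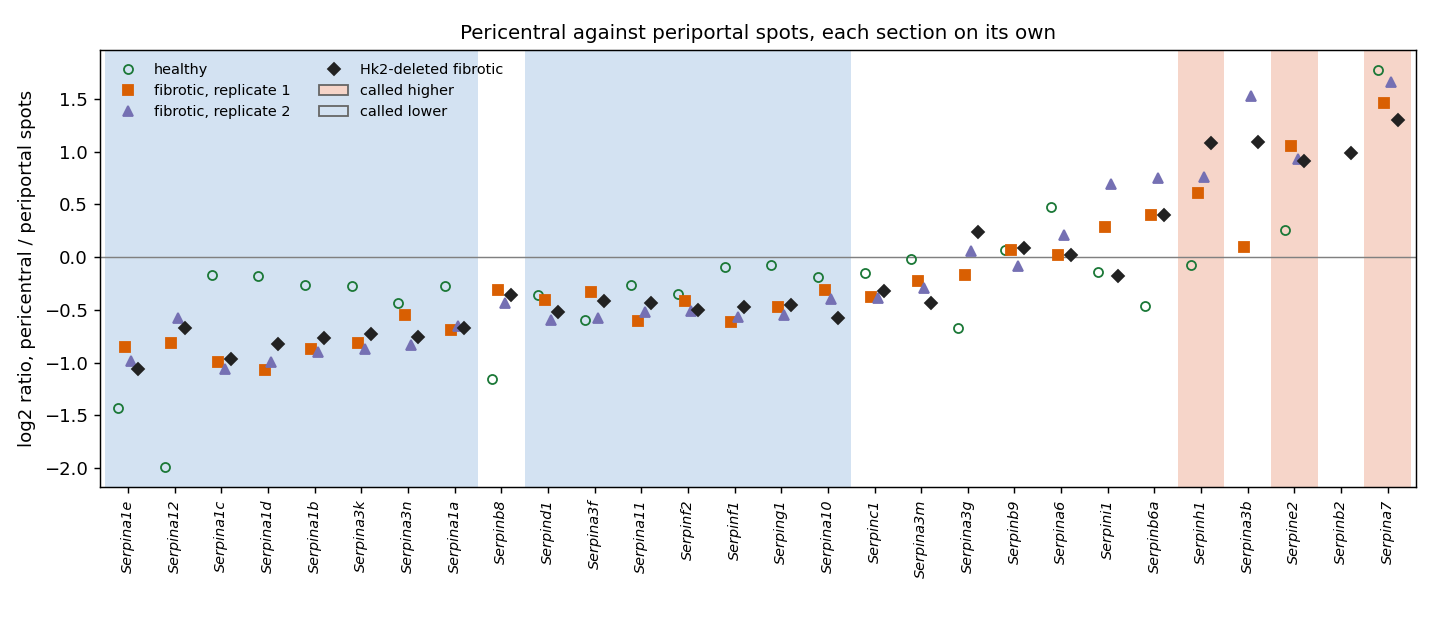
Log2 ratio of the serpins' levels in the pericentral over the periportal part, 1 point per section. Serpina7 lies at 1.30 to 1.78 in all 4 sections, and for Serpinh1, Serpinb6a and Serpina1c the healthy section stands apart from the 3 CCl4-treated ones.

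Whether the zone difference differed between CCl4 and olive oil was tested with a zone by treatment term, which rests on the 1 healthy section. Of 29 serpins, 14 were called, 5 with a positive and 9 with a negative term, beside 18.9% of 13345 genes called in either direction. The median was -0.17 over the serpins and 0.02 over all genes. With scaling by total UMIs, 6 terms were positive and 6 negative, beside 1642 and 534 over all genes tested. With 6 landmarks listed as moved by CCl4 left out of the score, 13 of the 14 kept their call. Depth by zone also differed: median UMIs per spot, pericentral against periportal, were 11997 against 20138 in the healthy section. They were 17521 against 12443 and 13366 against 13226 in fibrotic sections 1 and 2, and 13920.5 against 15908 in the Hk2-deleted section. The part of depth in the terms was not tested. The gradients themselves show what the terms measure.

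For Serpinh1 the pericentral to periportal difference was -0.07 in the healthy section against 0.61, 0.75 and 1.08 in fibrotic sections 1 and 2 and the Hk2-deleted section, a term of 0.88 ± 0.19 (SE; adjusted p = 0.0057). Serpinb6a went from -0.47 in the healthy section against 0.40, 0.75 and 0.40 in fibrotic sections 1 and 2 and the Hk2-deleted section (0.94 ± 0.18 SE, adjusted p = 0.0019). Both were level or periportal in the healthy liver and pericentral in the CCl4-treated ones. Serpine2 had the same direction (0.25 in the healthy section against 1.06, 0.93 and 0.91 in fibrotic sections 1 and 2 and the Hk2-deleted section), but its term of 0.71 ± 0.28 (SE; adjusted p = 0.094) did not pass. The term was called positive for all 10 stellate cell and fibroblast markers, 5 of 7 macrophage markers and 3 of 5 cholangiocyte markers, and negative for 1 of 6 hepatocyte markers; their part was not tested.

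Among the Serpina1 copies the terms went opposite ways. Serpina1c had a difference of -0.17 in the healthy section against -1.0, -1.06 and -0.96 in fibrotic sections 1 and 2 and the Hk2-deleted section (-0.85 ± 0.10 SE, adjusted p = 7.97e-05), and Serpina1d of -0.18 in the healthy section against -1.07, -1.0 and -0.82 in fibrotic sections 1 and 2 and the Hk2-deleted section (-0.80 ± 0.11 SE, adjusted p = 0.00023). Their gradient was thus slight in the healthy section and steep in the others. Serpina1e had its steepest gradient in the healthy section, -1.43 in the healthy section against -0.85, -0.99 and -1.06 in fibrotic sections 1 and 2 and the Hk2-deleted section (0.45 ± 0.11 SE, adjusted p = 0.0092; without fibrotic section 1 the adjusted p was 0.057). Serpina12 did so too, with -1.99 in the healthy section against -0.81, -0.58 and -0.68 in fibrotic sections 1 and 2 and the Hk2-deleted section (1.28 ± 0.14 SE, adjusted p = 5.7e-05). For both genes the levels given above were further apart between the healthy and the other sections in the periportal than in the pericentral part.

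The remaining called terms were negative for Serpina1b (-0.60; gradients of -0.27 in the healthy section against -0.87, -0.90 and -0.77 in fibrotic sections 1 and 2 and the Hk2-deleted section), Serpina3k (-0.54), Serpinf1, Serping1, Serpina1a, Serpina6 and Serpina3m (-0.31), and positive for Serpina3g (0.69 ± 0.17 SE, adjusted p = 0.0093). With collagen-high spots left out, 11 of the 14 held; Serpina1a, Serpina6 and Serpina3m did not pass. For Serpina7 the gradient was 1.78 in the healthy section against 1.46, 1.66 and 1.30 in fibrotic sections 1 and 2 and the Hk2-deleted section, and its term of -0.33 ± 0.12 (SE; adjusted p = 0.069) did not pass.

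Patchiness was also scored in the authors' deposited tables with Moran's I, which is near 0 for a gene scattered at random and rises as neighbouring spots become alike. The deposited score was 0.164 to 0.441 for Serpina1a to Serpina1e and 0.263 to 0.306 for Serpina3k. Serpina7 scored 0.061 to 0.123 and Serpinh1 0.0221 to 0.0887. Serpinc1 differed most between sections, at 0.0872 in the healthy section, 0.0316 and 0.139 in fibrotic sections 1 and 2 and 0.337 in the Hk2-deleted section.

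The proteases that serpins inhibit, with their receptors, cofactors and other plasma protease inhibitors, were listed as 49 partner genes. Of these, 47 were in the matrices. The list also held Mpo, an enzyme that is none of these kinds. With CCl4, 12 of 47 were called higher and 1 lower (25.5% and 2.13%, beside 9.64% and 4.01% of all genes tested), with a median of 0.05. The largest rises were of Mpo (myeloperoxidase), Ctsg, Elane and Prtn3. The last 3 are the neutrophil granule proteases cathepsin G, elastase and proteinase 3. They are known as targets of alpha-1-antitrypsin and antichymotrypsin, and which of the mouse copies act on them was not examined here. Mpo held 0 UMIs in the healthy section, which allows up to 0.0667 CPM, and 6.77, 4.42 and 5.52 CPM in the others. Elane held 2 UMIs there and stood at 8.46, 6.21 and 7.46 CPM in the others. The neutrophil markers, which include Mpo and Elane, summed to 21.4 CPM in the healthy section and 542, 1215 and 486 in the others.

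F11 (clotting factor XI) was the only partner called lower, at 91.2 in the healthy section, 46.8 and 37.7 in fibrotic sections 1 and 2 and 40.3 in the Hk2-deleted section (-1.11 ± 0.21 SE, adjusted p = 0.0011). With Hk2 deletion edgeR called 0 partners; 3 had an unadjusted p under 0.05, and DESeq2 called 0. In collagen-high spots 13 of 46 partners were higher and 23 lower (28.3% and 50%, beside 21.7% and 22% of all genes tested), with a median of -0.20. The highest were Slpi (secretory leukocyte protease inhibitor; 2.25 ± 0.14 SE, adjusted p = 5.4e-08), Elane (1.91), Ctsg (1.74) and Prtn3 (1.73). The Serpina1 copies were lower in the same spots, and all 8 neutrophil markers were higher.

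Between zones, 7 of 46 partners were higher in the pericentral part and 11 lower (15.2% and 23.9%, beside 5.26% and 4.85% of all genes tested). Slpi (1.67), Plat (tissue plasminogen activator; 1.48) and Vldlr (1.24), a receptor that takes up serpin and protease complexes, were the highest of those called. Itih3 (-0.74), a plasma protein of the inter-alpha-inhibitor family, was the lowest of those called. In the zone by treatment term 6 of 46 were positive and 13 negative (13% and 28.3%, beside 8.39% and 10.5% of all genes tested), with Plat (2.55) and Slpi (1.74) among the former.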

How the data were processed

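The deposited matrices hold UMI counts per gene and spot; Space Ranger 2.0.0 wrote them, per the file headers, and the submitters' processing notes name mm10 as genome. Which probes were used is not given in the sources used here. Moran's score was used as the authors deposited it. Serpin members and gene lists were chosen with earlier results of these data known. Counts were summed over spots per section, zone or spot kind and tested with edgeR 4.0.16 (R 4.3.3; TMM, filterByExpr, quasi-likelihood), with Benjamini-Hochberg adjustment over all genes tested and a threshold of 0.05. Whole sections were fitted as 3 groups with 1 residual degree of freedom from the fibrotic sections, and lone sections were assumed to vary like them. Zone scores averaged z of log2(CPM + 1) of landmarks, and Cyp2a5 among them was not used here. Scripts were tested on simulated data. The values of 1 serpin are not reported here, though it is counted among the 31. DESeq2 1.42.0, other cuts of spots, no filter, other scalings and left-out sections were the alternatives; total UMI scaling, collagen-high spots left out and pericentral spots only were added after seeing the data. Values in each section of the fit are given for serpins called between whole sections and for the 6 largest called differences each way between zones and between collagen-high and other spots; the rest are summarised. Coordinates and promoters are RefSeq, GRCm38.p6. Intervals are exact Poisson with a confidence of 95%, and the bound for 0 UMIs is 3 counts.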

Additional observations from a re-analysis of the deposited data

Results flagged for a closer look

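The difference between the pericentral and the periportal part differed between the CCl4-treated sections and the healthy section for 14 of 29 serpins. This was called on the zone by treatment term of edgeR's quasi-likelihood test with Benjamini-Hochberg adjustment. Of all 13345 genes tested, 18.9% were called, 8.39% with a positive and 10.5% with a negative term. The term was negative for Serpina1c (-0.85), Serpina1d (-0.80), Serpina1b (-0.60), Serpina3k (-0.54), Serpinf1 (-0.47), Serping1 (-0.43), Serpina1a (-0.42), Serpina6 (-0.41) and Serpina3m (-0.31). It was positive for Serpina1e (0.45), Serpina3g (0.69), Serpinh1 (0.88), Serpinb6a (0.94) and Serpina12 (1.28). All 14 rest on 1 healthy section, and 9 of them kept their call in all 8 other settings.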

How the results depend on the processing

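With CCl4, 5 to 10 serpins were called over 7 alternatives, against 7. For Hk2 deletion, against 1, DESeq2 called 2, no filter on low counts 3, total UMI scaling 7 (4 higher, 3 lower), and leaving out collagen-high spots 0 (5 with an unadjusted p under 0.05). Between zones, 17 to 18 were called over 6 alternatives, and leaving out 1 section each gave 1 to 23, against 18. The zone by treatment term gave 11 to 17, and collagen-high spots 21 to 23, left-out sections included. The 1 reversal was Serpina7 in collagen-high spots, at -0.20 among pericentral spots only; its cause was not tested beyond that restriction. Leaving out a fibrotic section from the whole-section fit leaves no residual degree of freedom, so only values are given. Serpins under 1 CPM are limited by depth. Whole sections came from separate mice and were not paired between groups, while zones and collagen-high spots were compared within sections.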
